A study of Mus musculus with 4 samples.

Results

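The mitochondrial ribosomal proteins are the nuclear-encoded proteins of the ribosome inside mitochondria. Their genes were compared in Lgr5-GFP high intestinal cells of mice with and without an induced deletion of CREPT. The members were all genes of the table whose symbol begins with Mrpl (large subunit) or Mrps (small subunit) followed by a number. There were 77 of them among 18436 genes, 48 of the large and 29 of the small subunit. All 77 passed the filter on low values that left 12621 genes in the test. The letter of the symbol sets the subunit, although structures of the mammalian mitoribosome place the proteins of Mrps18a and Mrps30 in the large subunit. Mrps36 is now regarded as a component of the 2-oxoglutarate dehydrogenase complex.

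RNA was sequenced from cells sorted for the strongest GFP signal out of dissociated intestinal crypts of C57BL/6 mice. The Lgr5-CREPT WT group (2 mice) carried the Lgr5-GFP-CreERT2 allele, in which the Lgr5 gene drives GFP and a tamoxifen-inducible Cre recombinase. The Lgr5-CREPT KO group (2 mice) carried the same allele and loxP-flanked (fl/fl) copies of Rprd1b, the gene for CREPT. Tamoxifen was injected in both groups on 5 days running, 1 mg each day, and the sort followed on day 7. The study's mice were males and females of 6 to 8 weeks. Cre acts only where Lgr5 is active, and the sort kept only cells that were still bright for GFP. Values are FPKM, fragments per kilobase of transcript scaled to each library, which divides by transcript length and so allows levels of different genes to be compared. The groups are called WT and KO below.

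Rprd1b was 17.69 and 18.09 FPKM in the WT mice against 6.65 and 7.36 FPKM in the KO mice. Its RNA was thus lower but still measured in the KO mice. How complete the deletion was in the sorted cells was not tested. FPKM values summed to 495758 and 499327 in the WT mice and to 468830 and 473662 in the KO mice. Read counts were not in the table, but the value of 1 read at a given gene length lay between 0.984 and 1.03 of that in WT mouse 1, so depth differed little between libraries. The 10 stem cell markers, Lgr5 and Olfm4 among them, summed to 6012 to 6206 FPKM in the WT mice. In the KO mice they summed to 6533 to 6746 FPKM. None of the 10 passed the test, but both KO mice were above both WT mice in 8 (80.0%), beside 25.6% of all genes. Enteroendocrine markers summed to 272 and 384 against 91.0 and 93.9 FPKM, with 7 of 21 tested called lower. Goblet markers summed to 1597 and 2647 against 902 and 1019 FPKM, with 3 of 15 called lower. Over all genes tested, 2.67% were called lower in the same test. Tuft cell markers summed to 276 and 325 against 249 and 213 FPKM. Of the 10 tested 0 were called, but both KO mice were below both WT mice in 9 (90.0%), beside 31.0% of all genes. Their median log2 fold change, KO minus WT, was -1.14, and that of the goblet markers was -1.14. The 14 Paneth, 16 enterocyte and 12 immune markers tested gave no call either. The 12 stromal and endothelial markers summed to 0.74 to 1.52 FPKM, and no marker of any list was at 0 in all 4 mice. Enteroendocrine, goblet and tuft cell markers were thus on balance lower in the KO mice and stem cell markers higher, with calls only among enteroendocrine and goblet markers. Paneth markers overlapped between groups. The part of other cell types in the results below was not tested. In bulk RNA, fewer cells of a type and less RNA per cell cannot be told apart.

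Mitochondria make a small number of proteins themselves, all of them parts of the respiratory chain and of ATP synthase. The ribosome that does so takes its RNA from mitochondrial DNA, while every one of its proteins is encoded in the nucleus, made in the cytosol and imported. Some of these proteins descend from bacterial ribosomal proteins, and others were added later and occur only in mitochondria. Lgr5 cells at the crypt base divide often and are known for active mitochondria. The table holds no gene of mitochondrial DNA, so only the nuclear side was measured.

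Mitoribosomal genes were on balance lower in KO cells. Of the 77 members, 10 fell at an adjusted p below 0.05, which is 13.0% of members beside 2.67% of all genes tested, and 0 rose, beside 0.412% of all genes (limma on log2 values, Benjamini-Hochberg adjustment over all genes). Their median log2 fold change was -0.24, with a range of -1.37 to 0.09, beside a median of -0.01 over all genes. Differences are given throughout as log2 fold changes, KO minus WT, on the log2(FPKM + 0.5) scale, which understates changes of low values. Most shifts were small: 1 member, Mrpl17, passed an adjusted p below 0.05 together with an absolute log2 fold change above 1, where 1.01% of all genes were lower and 0.127% higher.

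Before any correction for transcript length, the direction was widely shared, and the correction described further on took much of it away. In 58 members (75.3%) both KO mice were below both WT mice, beside 31.0% of all genes. In 4 members (5.19%), Mrpl10, Mrpl42, Mrps26 and Mrps30, both KO mice were above, beside 25.6% of all genes. The groups overlapped in the remaining 15. At an unadjusted p below 0.05, 43 members were lower, beside 15.2% of all genes, and 0 were higher, beside 9.27%. An exact permutation test of 2 mice against 2 cannot give less than 0.33, so every call leans on the spread limma pools over genes, and with any 1 of the 4 mice left out no gene of the table was called.

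**Figure D1:**
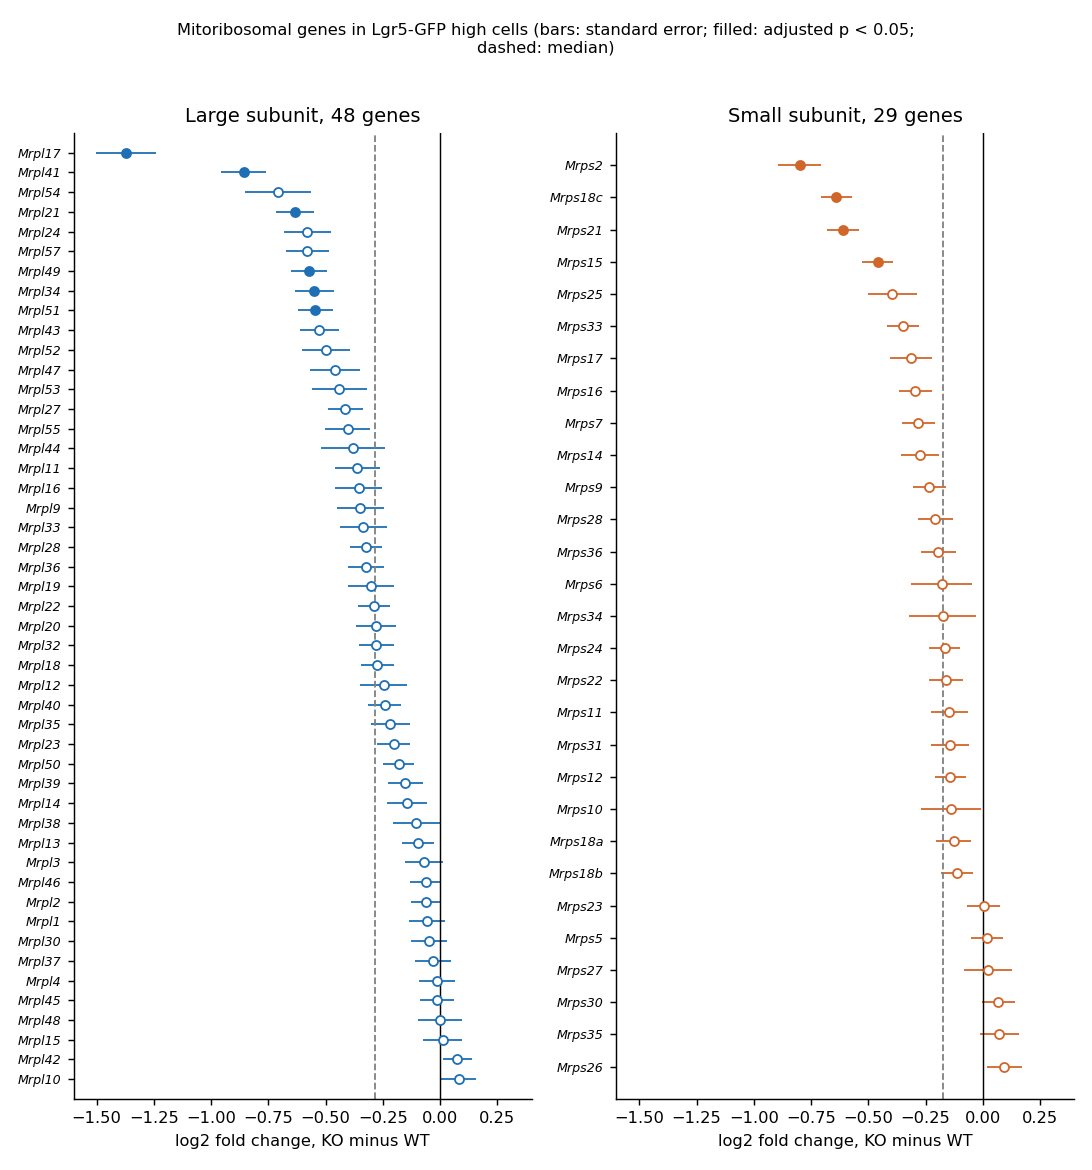
Log2 fold change of the 48 large subunit (left) and 29 small subunit (right) genes, KO minus WT, with the standard error as bars. Filled points passed an adjusted p below 0.05 (6 and 4 genes), and the dashed lines mark the medians of -0.28 and -0.18, both left of 0.

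The large and the small subunit gave similar shares of calls. In the large subunit 6 of 48 genes (12.5%) fell, both KO mice were below in 38 (79.2%), and the median log2 fold change was -0.28. In the small subunit 4 of 29 (13.8%) fell, both KO mice were below in 20 (69.0%), and the median was -0.18. Counting Mrps18a and Mrps30 with the large subunit left the medians at -0.28 and -0.18. The difference between subunits was not tested. Summed over a subunit, large subunit genes came to 2389 and 2427 FPKM in the WT mice and to 1992 and 2022 FPKM in the KO mice. Small subunit genes came to 1266 in each of the WT mice and to 1086 and 1104 FPKM in the KO mice. Neither sum overlapped between groups. All members together held 0.737% and 0.739% of the FPKM sum in the WT mice and 0.657% and 0.660% in the KO mice.

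Mrpl17, a large subunit protein with a bacterial counterpart at the exit of the peptide tunnel, had the largest difference of the 77. It was 5.11 and 5.14 FPKM in the WT mice and 1.63 and 1.72 FPKM in the KO mice. Both KO values lay near one another and far below both WT values, at 32.7% of their mean. The log2 fold change was -1.37 (SE 0.131, adjusted p = 0.0301 by limma). Mrpl17 also had the lowest level of all members, with a mean of 3.40 FPKM, and the longest transcript length, 7300 bases, although shorter isoforms are also annotated. It lies on chromosome 7 from 105803782 to 105811087 (RefSeq, GRCm38.p6).

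Mrpl41, on chromosome 2, encodes a large subunit protein that occurs only in mitochondria. Its values were 13.85 and 12.98 FPKM in the WT mice against 6.89 and 7.47 FPKM in the KO mice, so the groups were well apart and the KO mean was 53.5% of the WT mean. The log2 fold change was -0.86 (SE 0.0974, adjusted p = 0.0333 by limma). Mrpl21, on chromosome 19, encodes the counterpart of a bacterial large subunit protein, and was 39.03 and 41.32 FPKM against 24.62 and 26.83 FPKM, with no overlap (log2 fold change -0.63, SE 0.0827, adjusted p = 0.0376). Mrpl34, on chromosome 8, encodes one of the smallest members, 92 residues long and with a bacterial counterpart. It was 76.82 and 86.64 FPKM against 56.49 and 54.73 FPKM (log2 fold change -0.55, SE 0.0853, adjusted p = 0.0474). The WT mice differed more from each other here than the KO mice did.

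Mrpl49 and Mrpl51 encode large subunit proteins known only from mitochondria. Mrpl49, on chromosome 19, was 39.75 and 36.47 FPKM in the WT mice and 25.15 and 25.75 FPKM in the KO mice (log2 fold change -0.57, SE 0.0797, adjusted p = 0.0410 by limma). Mrpl51, on chromosome 6, was 38.88 and 41.97 FPKM against 27.48 and 27.53 FPKM (log2 fold change -0.55, SE 0.0764, adjusted p = 0.0413). The KO means were 66.8% and 68.0% of the WT means, and in both genes the groups did not overlap. Some of these loci share exon positions with another gene of the table, Mrpl49 with Syvn1 and Mrpl21 with Ighmbp2 on the opposite strand and Mrpl51 with Mir3098 on the same strand. Whether counting used the strand was not given in the sources used here, so reads of such partners cannot be told apart for certain. Overlap of this kind was found for 23 members.

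The 4 small subunit genes that fell all encode proteins with a bacterial counterpart. Mrps2, on chromosome 2, was 29.03 and 33.07 FPKM in the WT mice and 17.95 and 17.24 FPKM in the KO mice, the largest difference of the small subunit (log2 fold change -0.80, SE 0.0944, adjusted p = 0.0341 by limma). Mrps18c, on chromosome 5, was 61.6 and 60.25 FPKM against 38.38 and 39.44 FPKM (log2 fold change -0.64, SE 0.0673, adjusted p = 0.0319). In both genes the KO mice lay close together and well below. Mrps21, on chromosome 3, was the most abundant small subunit gene, at 88.29 and 92.85 FPKM in the WT mice, and fell to 60.31 and 57.85 FPKM (log2 fold change -0.61, SE 0.0702, adjusted p = 0.0333). Mrps15, on chromosome 4, was 47.17 and 48.3 FPKM against 34.09 and 35.06 FPKM (log2 fold change -0.46, SE 0.0686, adjusted p = 0.0460). It had the smallest difference of the 10 genes called, yet a clear gap between groups.

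**Figure D2:**
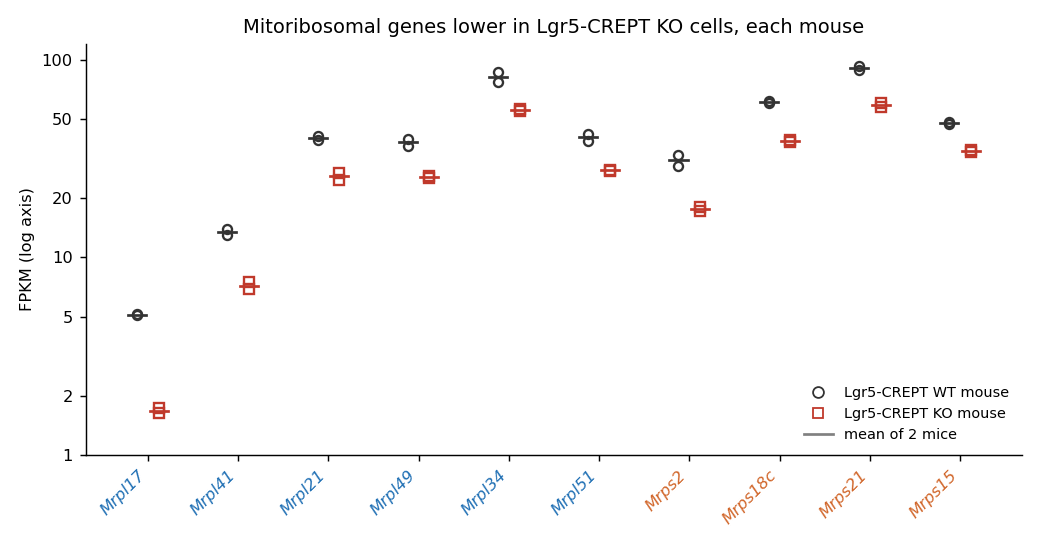
FPKM of the 10 mitoribosomal genes that fell, on a log axis, in each WT mouse (circles) and KO mouse (squares), with the mean of 2 mice as a line. Blue names are large and orange names small subunit genes. In each gene both squares lie below both circles, from 1.63 and 1.72 against 5.11 and 5.14 FPKM in Mrpl17 to 34.09 and 35.06 against 47.17 and 48.3 FPKM in Mrps15.

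The 3 Mrps18 paralogs, of which Mrps18c was counted as the bacterial counterpart, did not give the same values. Beside the log2 fold change of -0.64 in Mrps18c, Mrps18a was 52.26 and 55.44 FPKM against 47.65 and 50.89 FPKM (-0.13, adjusted p = 0.373 by limma). Mrps18b was 56.68 and 53.85 FPKM against 50.11 and 51.92 FPKM (-0.11, adjusted p = 0.385). All 3 had both KO mice below, but neither Mrps18a nor Mrps18b passed the test, and the difference between the paralogs was not tested.

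Several members lay just outside the threshold. Mrpl43 had a log2 fold change of -0.53 (adjusted p = 0.0501 by limma) and Mrpl57 one of -0.58 (0.0511). Mrpl24, a protein of the tunnel exit, was 100.68 and 105.51 FPKM against 75.03 and 63.04 FPKM (-0.58, adjusted p = 0.0595). Mrpl54 had the third largest difference of the large subunit, from 49.03 and 53.48 FPKM to 27.26 and 35.68 FPKM, but its KO mice differed more from each other (-0.71, SE 0.144, adjusted p = 0.0713). Mrps25 was 11.28 and 12.94 FPKM against 9.24 and 8.9 FPKM (-0.40, adjusted p = 0.111). At an adjusted p below 0.1 the count rose from 10 to 23 members, all lower. The share of all genes at that looser threshold was not worked out, so the rise is not a result about members.

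Members are described next by place in the ribosome, with genes chosen after their values were seen. Around the exit of the peptide tunnel, beside Mrpl17 and Mrpl24 above, Mrpl47 had a log2 fold change of -0.46, Mrpl22 of -0.29 and Mrpl23 of -0.20, none of them past the test. Mrpl45, which ties the ribosome to the inner membrane near that exit, was 29.07 and 30.95 FPKM against 29.43 and 29.97 FPKM (-0.01), with the groups interleaved. In the stalk that receives the translation factors, Mrpl12 was 173.1 and 165.94 FPKM against 131.07 and 155.39 FPKM (-0.25, adjusted p = 0.222 by limma) and Mrpl11, at the base of the stalk, had a log2 fold change of -0.36 (adjusted p = 0.113). Mrpl10, which anchors Mrpl12, was 40.4 and 43.68 FPKM against 45.03 and 43.9 FPKM (0.08, adjusted p = 0.561). These stalk values did not share a sign, and none passed the test. In the central protuberance, Mrpl18 (-0.27), Mrpl40 (-0.24), Mrpl38 (-0.10), Mrpl46 (-0.06) and Mrpl48 (0.00) ran from modest shifts to none. Mrps12, a protein of the decoding centre, was 58.59 and 57.79 FPKM against 53.75 and 51.58 FPKM (-0.14, adjusted p = 0.271).

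Before any correction for transcript length, the members with the most positive fold changes differed little between groups. In the large subunit, Mrpl42, found only in mitochondria, was 119.5 and 117.54 FPKM against 126.47 and 123.39 FPKM (log2 fold change 0.08, adjusted p = 0.519 by limma). With the length and GC correction described further on, Mrpl42 was at 0.37 (adjusted p = 0.0658 by limma). Mrpl15 was 22.05 and 22.9 FPKM against 23.64 and 21.68 FPKM (0.01). In the small subunit, Mrps26 had a log2 fold change of 0.09 (adjusted p = 0.493), Mrps35 and Mrps30 of 0.07 each, Mrps27 and Mrps5 of 0.02 each. Mrps5, whose bacterial counterpart lines the entry of the messenger, was 64.13 and 59.99 FPKM against 62.85 and 62.73 FPKM. Mrps36 was 46.33 and 49.24 FPKM against 42.78 and 40.63 FPKM (-0.19, adjusted p = 0.203). No member was called higher under any of the settings tried.

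Levels differed widely between genes. Mean FPKM over the 4 mice ran from 3.40 in Mrpl17 to 156 in Mrpl12 in the large subunit and from 10.6 in Mrps25 to 74.8 in Mrps21 in the small subunit. The most abundant large subunit genes were Mrpl12, Mrpl42 and Mrpl52, and Mrpl42 and Mrpl52, at 122 and 120 FPKM, did not differ beyond their spread. Mrpl52 was 151.18 and 131.04 FPKM in the WT mice and 93.82 and 105.64 FPKM in the KO mice (log2 fold change -0.50, adjusted p = 0.0741 by limma), and so stood above Mrpl42 in the former and below it in the latter. In the small subunit Mrps21 was followed by Mrps35 and Mrps5, at 65.5 and 62.4 FPKM, whose ranges over mice overlapped. Spearman's rho of the levels, across the 77 genes and as a description only, was 0.984 between the WT mice, 0.980 between the KO mice and 0.948 between the group means.

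Members with a bacterial counterpart numbered 46, of which 7 fell (15.2%), with a median log2 fold change of -0.28. Those known only from mitochondria numbered 31, of which 3 fell (9.68%), with a median of -0.16. Over all genes tested 2.67% fell. In the large subunit the medians were -0.28 (30 genes, 3 lower) and -0.31 (18 genes, 3 lower). In the small subunit they were -0.25 (16 genes, 4 lower) and -0.13 (13 genes, 0 lower). The lists put Mrps18a and Mrps18b, which are related to the same bacterial protein as Mrps18c, with the proteins known only from mitochondria. With both counted among the bacterial counterparts, a choice made after seeing the data, the small subunit medians were -0.22 (18 genes, 4 lower) and -0.14 (11 genes, 0 lower). These splits were not tested.

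Across all genes the fold change moved with transcript length, and mitoribosomal transcripts are short. Among 12498 genes with an annotated transcript, Spearman's rho between log2 fold change and transcript length was 0.361, a correlation across genes, which are not independent replicates. Within length classes, the 16 members under 800 bases had a median log2 fold change of -0.37, beside -0.22 for all 853 genes of that class, and 4 of them fell, beside 7.50% of the class. For 32 members of 800 bases to under 1500 the median was -0.18, beside -0.17 for all genes, and 2 fell, beside 5.50% of the class. For 14 members of 1500 bases to under 3000 it was -0.23, beside -0.05, and 2 fell, beside 2.59%. For 15 members of 3000 bases or more it was -0.22, beside 0.07, and 2 fell, Mrpl17 and Mrpl51, beside 1.07%. Annotated lengths may not be those of the RNA measured. Those of Mrpl51 (3427 bases) and Mrps26 (4278 bases), for example, exceed the RefSeq spans of their genes, and Mrpl17 also has shorter isoforms. The comparison in this longest class is therefore uncertain. The median of members was thus close to that of all genes from 800 bases to under 1500 and lower in the other classes. Even in that class, 96.9% of members had a negative value, beside 77.0% of all genes.

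**Figure D3:**
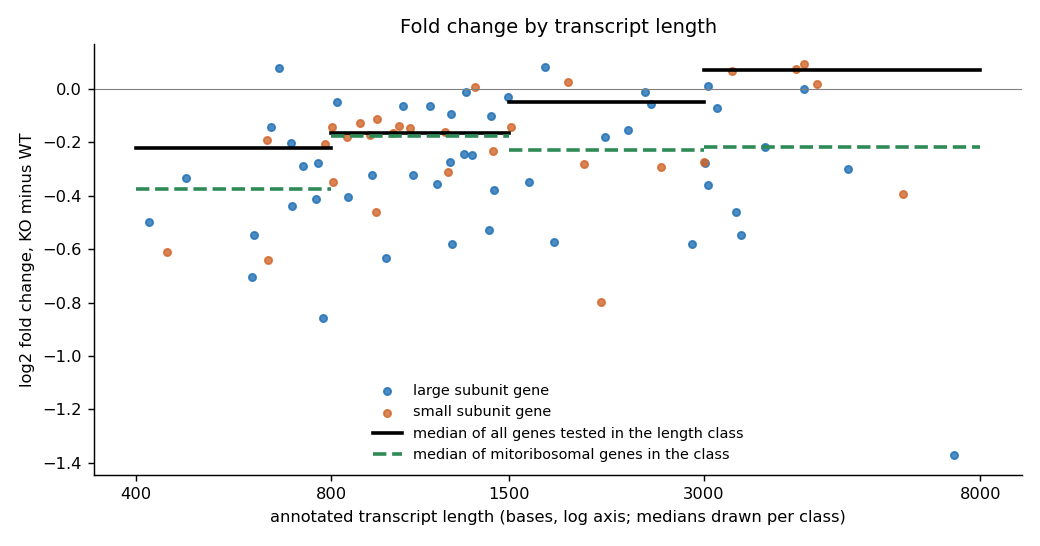
Log2 fold change of each mitoribosomal gene (blue, large; orange, small subunit) by annotated transcript length on a log axis. Black lines are the medians of all genes tested in 4 length classes, -0.22, -0.17, -0.05 and 0.07, and dashed green lines those of the mitoribosomal genes, -0.37, -0.18, -0.23 and -0.22.

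When each library was corrected for a smooth trend over transcript length and GC content, the median of the members became -0.07, that of the large subunit -0.10 and that of the small subunit 0.02. After the correction 2 members were called lower, beside 1.06% of all genes, and 0 higher. Negative values remained in 46 of 77 members, 34 of 48 in the large and 12 of 29 in the small subunit, beside 48.1% of all genes. At an unadjusted p below 0.05, 22 members were lower, beside 11.6% of all genes, and 2 were higher, beside 7.98%. The genes called lower were Mrpl17 (log2 fold change -1.47, adjusted p = 0.0361 by limma) and Mrps2 (-0.73, adjusted p = 0.0474). Mrpl17 was corrected as a transcript of 7300 bases, although shorter isoforms are annotated, so its corrected value depends on that length. The other 8 genes called before kept a negative sign, from -0.25 in Mrps15 to -0.61 in Mrpl41. Within the members the fold change went more with protein length (Spearman's rho 0.490 over 77 genes, a description) than with transcript length (0.229), and the 10 genes that fell encode a median of 154.5 residues, beside 200 for the other 67.

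Cytosolic ribosomal proteins, whose transcripts are also short, had a median log2 fold change of -0.17 over 80 genes tested, and both KO mice were below in 60 (75.0%), a share near that among mitoribosomal genes. Of these 80, 2 fell (2.50%, near the 2.67% of all genes tested), Rpl22l1 and Rpl7l1. After the length and GC correction the median of the cytosolic list was 0.06. Mitoribosomal proteins under other symbols gave 0 calls among 7 tested, with a median of -0.19. Dap3, a GTP-binding small subunit protein, had a log2 fold change of 0.08 and Ptcd3, a small subunit protein that binds RNA, one of 0.14. Gadd45gip1 (-0.31), Aurkaip1 (-0.23), Chchd1 (-0.22) and Ict1 (-0.19), the last of which encodes the large subunit protein now named Mrpl58, had negative values that did not pass the test.

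Before the length and GC correction, the genes that build and run the mitoribosome had medians near 0. Of 28 assembly and rRNA modification factors tested, 1 fell, Smim4, a small inner membrane protein of respiratory complex assembly that is also reported at mitoribosomes, at 20.22 and 16.98 FPKM against 10.86 and 10.2 FPKM (log2 fold change -0.79, adjusted p = 0.0438 by limma). The median of that list was -0.06, and its share of calls was 3.57%, near the 2.67% of all genes tested. Of 18 mitochondrial translation factors 1 fell (5.56%), Mtrf1l, a release factor that frees the finished peptide. It was 8.55 and 9.59 FPKM against 4.41 and 4.53 FPKM (-0.94, adjusted p = 0.0339), and the list had a median of 0.04. None of the 20 mitochondrial aminoacyl-tRNA synthetases, which charge tRNAs, passed the test (median 0.03), nor any of 15 genes of mitochondrial DNA transcription and RNA processing (0.01) or of 11 transcription factors known to act on nuclear genes for mitochondria (0.01). None rose in any of these lists. The transcripts of these lists are longer, with list medians from 1954 to 3656 bases, beside 1226 for members. After the length and GC correction the list medians, in the order given, were 0.04, -0.04, 0.06, 0.05 and -0.04, beside -0.07 for members.

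**Figure D4:**
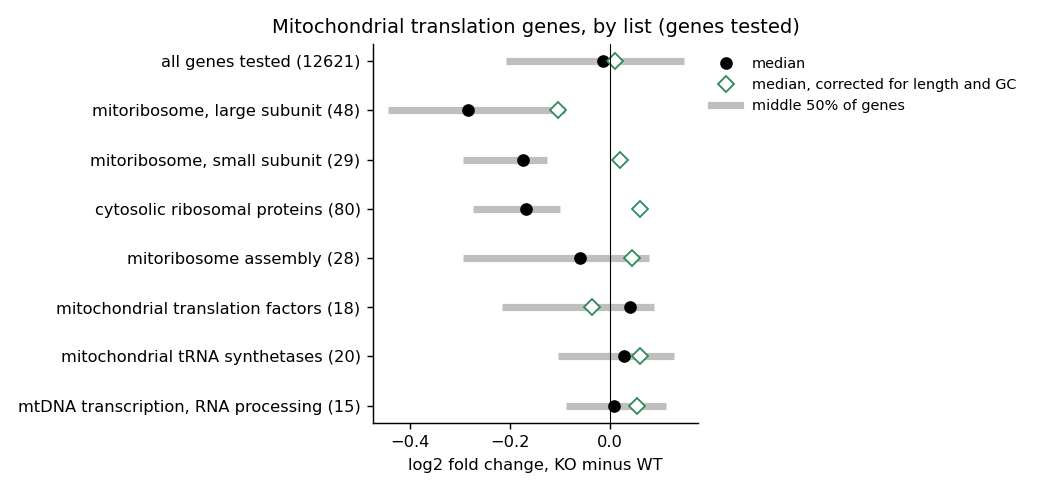
Median log2 fold change (black points) of all genes tested, of the mitoribosomal subunits and of related lists, with the middle 50% of genes as grey bars and the median once transcript length and GC are corrected for as green diamonds. The number of genes tested stands beside each name. The large subunit lies at -0.28 and moves to -0.10, the small subunit at -0.18 and moves to 0.02, and cytosolic ribosomal proteins at -0.17 and move to 0.06.

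The 10 genes that fell lie on 8 chromosomes, so they do not form one cluster. Around Mrpl17, 6 of 19 other genes tested within 1000000 bases (31.6%) also fell, beside 2.67% of all genes tested. They included Taf10, a subunit of the general transcription factor TFIID, and Timm10b, a chaperone of mitochondrial protein import. The others were Gvin1, a large interferon-inducible GTPase, and the gene models Gm8979, Gm8989 and Gm1966. Gvin1 and these gene models lie together, 272 to 792 kb to one side of Mrpl17, so the 6 need not be independent. Gm8979 (log2 fold change -2.44) and Gm8989 (-2.27) had larger differences than Mrpl17, while Rrp8 (-0.07) and Ilk (-0.09), closer than Timm10b, were near 0. Gene families such as those of Gvin1 hold near-identical copies between which reads can be split, so their values are uncertain. Around Mrpl41, 4 of 40 genes fell, Arrdc1, Noxa1, Entpd8 and Sapcd2, and around Mrpl49 4 of 77. Around Mrpl34 2 of 61 (3.28%) and around Mrps21 2 of 59 (3.39%) fell and 1 rose near Mrps21. These shares are near the 2.67% of all genes tested that were lower, and 0.412% of all genes were higher. Around Mrpl21, Mrpl51, Mrps2, Mrps18c and Mrps15 none of 30, 38, 13, 14 and 21 genes passed the test.

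**Figure D5:**
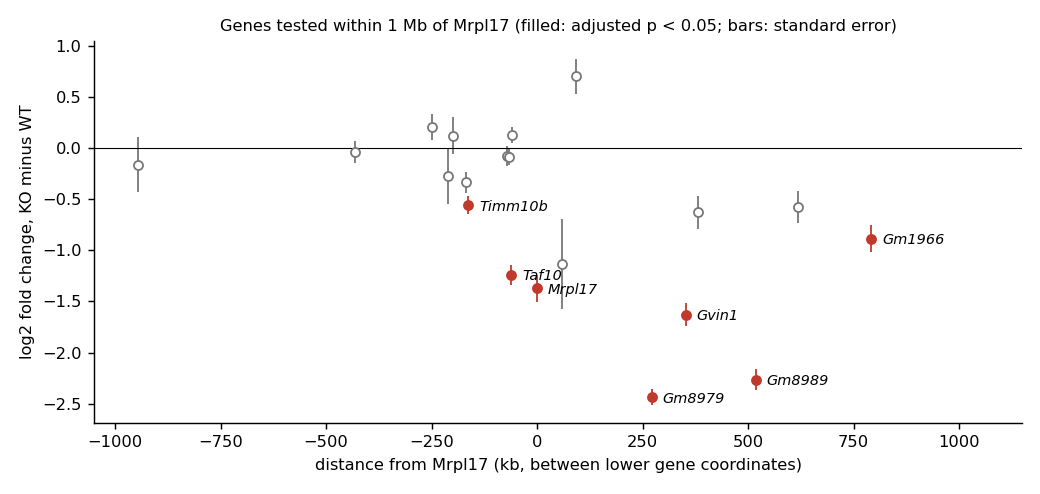
Log2 fold change, with the standard error as bars, of Mrpl17 and the 19 other genes tested within 1000000 bases of it, by distance in kb between the lower coordinates of the genes. Filled red points passed an adjusted p below 0.05, and all 7 of them, from Timm10b at -0.56 to Gm8979 at -2.44, are below 0.

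Many mitoribosomal genes start back to back with another gene, and 25 members had a neighbour on the opposite strand whose start lay within 1000 bases. Of the genes that fell, 5 had such a neighbour, and none of the partners passed the test. Mrpl21 (-0.63) starts 32 bases from Ighmbp2 (0.20), Mrps18c (-0.64) 159 bases from Helq (0.02) and Mrpl49 (-0.57) 192 bases from Fau (-0.15). Mrpl51 (-0.55) starts 614 bases from Ncapd2 (0.00) and Mrpl41 (-0.86) 935 bases from Pnpla7 (0.50). Mrpl46 and Mrps11, a large and a small subunit gene, share a start region on chromosome 7 with their starts 42 bases apart. Mrpl46 had a log2 fold change of -0.06 and Mrps11 of -0.15, with neither called. The whole interval between their starts is shown as the one place where a single stretch lies upstream of a gene of each subunit.
Mrpl46 and Mrps11 (chr7:78783090-78783130, plus strand): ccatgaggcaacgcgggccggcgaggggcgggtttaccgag

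Promoters of nuclear genes for mitochondrial proteins are known for sites of ETS factors, NRF1 and YY1. In RefSeq windows from 250 bases before to 50 bases after the start (GRCm38.p6), the letters CCGGAAG of an ETS site, on either strand, were found in 25 of 68 members with a window (36.8%), in 6 of the 10 genes that fell (60.0%) and in 20.5% of 9498 genes tested that have a window. The core of an NRF1 site, GCGCATGC, was in 8 of 68 members (11.8%), in 1 of the 10 genes that fell and in 6.0% of genes. The letters AAGATGGCG of a YY1 site were in 8 of 68 members (11.8%), in 0 of the 10 genes that fell and in 3.7% of genes. The 3 strings do not contain one another. Among members, the median log2 fold change was -0.34 in the 25 with the ETS letters and -0.23 in the 43 without. It was -0.28 in the 8 with the NRF1 core and -0.26 in the 60 without, and -0.14 in the 8 with the YY1 letters and -0.28 in the 60 without. These are counts of letters and no site was measured. Mrpl4, Mrpl13, Mrpl15, Mrpl19, Mrpl38, Mrpl54, Mrps28, Mrps34 and Mrps35 had no window.

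The 250 bases upstream of the start are shown for the 4 genes that fell and hold such letters there, to show where they stand. Each is written 5′ to 3′ along its gene and ends at the base before the start. Capitals mark the ETS letters on either strand and, near the end of Mrpl17, the NRF1 core.
Mrpl17 (chr7:105811088-105811337, minus strand): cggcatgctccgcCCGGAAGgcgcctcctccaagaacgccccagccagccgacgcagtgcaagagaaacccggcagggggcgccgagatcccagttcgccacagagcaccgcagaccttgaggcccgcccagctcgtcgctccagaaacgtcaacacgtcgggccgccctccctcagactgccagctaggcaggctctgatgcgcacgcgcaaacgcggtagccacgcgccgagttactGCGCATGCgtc
Mrpl34 (chr8:71464676-71464925, plus strand): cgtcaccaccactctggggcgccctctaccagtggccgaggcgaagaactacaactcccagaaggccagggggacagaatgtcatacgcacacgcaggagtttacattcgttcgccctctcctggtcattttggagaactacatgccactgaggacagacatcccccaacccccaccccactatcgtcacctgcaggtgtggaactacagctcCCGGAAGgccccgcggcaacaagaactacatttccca
Mrpl51 (chr6:125191950-125192199, plus strand): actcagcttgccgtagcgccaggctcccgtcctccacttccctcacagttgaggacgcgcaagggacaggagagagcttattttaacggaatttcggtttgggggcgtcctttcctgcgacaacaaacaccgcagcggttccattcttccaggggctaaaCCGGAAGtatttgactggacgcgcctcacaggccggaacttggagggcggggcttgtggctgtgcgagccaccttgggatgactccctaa
Mrps18c (chr5:100798509-100798758, plus strand): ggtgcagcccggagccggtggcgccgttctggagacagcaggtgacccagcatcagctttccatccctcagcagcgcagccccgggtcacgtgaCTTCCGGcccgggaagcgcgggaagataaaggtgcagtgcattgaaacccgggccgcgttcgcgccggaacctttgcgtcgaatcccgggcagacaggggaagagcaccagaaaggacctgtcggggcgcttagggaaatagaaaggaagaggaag
In Mrpl21 and Mrps21 the ETS letters lie only after the start or across it, and the windows of Mrpl41, Mrpl49, Mrps2 and Mrps15 hold none of the 3 strings.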

How the data were processed

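The authors deposited a single table of FPKM values for sorted Lgr5-GFP high cells of 2 WT and 2 KO mice, with gene symbols in rows. The study's methods name Bowtie2 for mapping to transcripts of GRCm38.p6 and RSEM for quantification. The submitters' processing notes also name HISAT and mm10. FPKM is relative to each library, so a value depends on all other genes of that mouse. No counts were given, and total read depth is unknown.

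Mice were assigned by column names, which match the sample titles. Values were taken as log2(FPKM + 0.5), and the 12621 of 18436 genes averaging 0.5 FPKM or more were fitted with limma 3.58.1 in R 4.3.3 (lmFit, eBayes with an intensity trend), with Benjamini-Hochberg adjustment over all of them. The study used a count model at an absolute log2 fold change above 1, which FPKM values do not allow. The script was tested on simulated data. Members and lists were chosen with earlier results of these data known. Named genes were the members called, per subunit the 5 most positive and 5 most negative fold changes and the 3 highest levels, Mrps18a, Mrps30, Mrps36, genes called in the related lists and Rprd1b. Other genes, including those grouped by place in the ribosome, just outside the threshold or near a member, were named after their values were seen.

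Coordinates and promoter sequences came from RefSeq (GRCm38.p6), in which all 77 members were found by symbol, and transcript lengths, GC content and exon overlaps from GENCODE M21 (same assembly). The length and GC correction used loess with a span of 0.3. Python 3.11.15 with pandas 2.3.3, scipy 1.17.1 and matplotlib 3.10.9 was used. The pseudocount, filter, scaling, intensity trend, replicate block, threshold and the mice included were varied.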

Additional observations from a re-analysis of the deposited data

How the results depend on the processing

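The count of 10 members lower became 12 with a pseudocount of 0.1 or a mean of at least 1 FPKM and 10 with a pseudocount of 1. Over all genes, 344, 360 (of 11658) and 322 were lower in these fits, beside 337 in the main fit. The count of members was 8 with quantile normalization or median centring (273 and 293 of all genes) and 6 with scaling to a common sum, TPM (241). The count of members became 0 with no filter, where no gene of the table was called. It was also 0 with no intensity trend, where 4 genes of the table were lower. At an adjusted p below 0.1 it was 23, with no share of all genes worked out at that threshold. The correction for transcript length and GC left 2 members, with 133 of 12498 genes lower. Keeping transcripts of at least 200 bases gave 14 members. Both settings were chosen after seeing the data. Keeping such transcripts also raised the calls over all genes, to 531 lower and 126 higher of 12234, beside 337 and 52 of 12621. The fits without 1 mouse leave a single mouse in 1 group, and the sizes of their differences are given below. No member was called higher in any of these fits. Scaling to TPM split the calls over all genes into 241 lower and 85 higher, beside 337 and 52.

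The medians of the large and small subunit were -0.21 and -0.10 with TPM, -0.25 and -0.13 with quantile normalization, -0.26 and -0.15 with median centring, and -0.10 and 0.019 with the length and GC correction. Without 1 mouse they ranged from -0.29 to -0.26 and from -0.22 to -0.17. With the correction 23 members went from a negative value (-0.21 to -0.014 before) to a positive one and 2 the other way, so 46 in place of 67 were negative. Among the named members whose sign changed were, with the correction, Mrpl48 (-0.026), Mrps5 (-0.034), Mrps18a (0.088) and Mrps36 (0.098), and over the fits without 1 mouse, Mrpl15 (-0.051 to 0.072), Mrpl48 (-0.098 to 0.099), Mrps27 (-0.068 to 0.11), Mrps5 (-0.030 to 0.065) and Mrps35 (-0.011 to 0.16). The 10 genes called kept their sign in all 15 alternatives, with adjusted p up to 0.305. The cause of these changes was not tested.

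Same-numbered mice were different animals, and the correlation of their deviations was -0.03, so the numbers do not pair them. A replicate block left 1 member called, with 168 of 12621 genes lower.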
